A study of Mus with 18 samples.

Results

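The genes described here carry out inflammasome assembly, pyroptosis and necroptosis in the mouse. They are the 10 genes Nlrp3, Aim2, Naip5, Pycard, Casp1, Casp4, Gsdmd, Casp8, Ripk3 and Mlkl, chosen by symbol from the 21401 gene symbols listed for each of the 2 experiments. All 10 were found in both experiments. RNA-seq was performed on C2C12 cells, a mouse myoblast line of wild type genotype, and on gastrocnemius muscle of wild type male C57BL/6 mice. Each experiment had a control, an LPS and an LPS-MIC-1 group of 3 libraries, 18 libraries in all. MIC-1 is moringa isothiocyanate-1, a compound from the seeds of Moringa oleifera, and LPS is lipopolysaccharide, the bacterial endotoxin.

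The labels call the control cells and mice saline vehicle controls. LPS cells received LPS at 1 μg/mL, and LPS-MIC-1 cells received the same LPS together with MIC-1 for 24 h. The labels give 10 μM MIC-1 for the cells, whereas the text of the study names another concentration, and it names ethanol as the vehicle of the cells and DMSO as that of the control mice. The dose in cells and both vehicles are therefore uncertain. LPS mice received LPS at 10 mg/kg by intraperitoneal injection. LPS-MIC-1 mice also received MIC-1 at 80 mg/kg by daily gavage in DMSO for 3 days before the same injection. Muscle was taken 16 h after LPS. Neither experiment had a group given MIC-1 without LPS. The labels do not say whether the libraries of a cell group came from separate cultures, so the p-values measure the spread between these libraries, which may be technical.

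An inflammasome is a protein platform in which a sensor of danger or infection recruits the adaptor Pycard and activates Casp1. Casp1 matures the interleukin precursors of the interleukin 1 family and, like Casp4, which binds LPS inside the cell, cleaves Gsdmd. The freed end of Gsdmd forms pores in the plasma membrane, and the cell dies by pyroptosis. Necroptosis is a separate lytic death in which the kinase Ripk3 phosphorylates Mlkl, which then breaks the membrane, and Casp8 restrains it by cleaving the kinases upstream. Macrophages are known for strong inflammasome responses to LPS, whereas skeletal muscle fibres carry little of the machinery.

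Marker genes were read first, to check the labels. Levels are in FPKM, reads per gene scaled by transcript length and library depth. For macrophage genes, 21 of 22 were found, and their FPKM summed to between 10895 and 10941 in the libraries labelled C2C12 control and to 8123 to 8326 where the label was LPS. LPS-MIC-1 replicates 1, 2 and 3 had sums of 312, 89.9 and 104. Lyz2, the macrophage lysozyme, averaged 4694 FPKM in the control libraries and 1838 with LPS, and had 48.8, 1.87 and 0.616 in LPS-MIC-1 replicates 1, 2 and 3. Cd14, the LPS co-receptor, had means of 705 and 2040, then 136, 73.8 and 88.3, and Fcer1g had means of 998 and 1225, then 30.5, 1.69 and 0.216. Without replicate 1, the LPS-MIC-1 mean was 1.25 for Lyz2 and 0.955 for Fcer1g. Emr1, a defining macrophage gene, averaged 43.0 FPKM in control and 89.7 with LPS, and Ptprc, the common leukocyte antigen, 38.8 and 38.9. Both were listed at 0 in LPS-MIC-1 replicates 2 and 3. C1qa, C1qc and Aif1 were listed at 0 in all 3 LPS-MIC-1 libraries but were low elsewhere too, with control means of 0.720, 2.70 and 0.473, and Aif1 was also at 0 in 3 libraries labelled control or LPS.

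The 11 myogenic genes went the other way. Their sum lay between 0.277 and 0.558 FPKM for control, between 0.448 and 2.67 for LPS, and between 936 and 1189 for LPS-MIC-1. Des, the muscle intermediate filament gene, had 0.126, 0.498 and 398 FPKM, Cdh15 had 0.00612, 0.118 and 178, and Tmem8c had 0.0426, 0.147 and 153. Myf5 was listed at 0 in every library labelled control and LPS. The sum of 10 mesenchymal genes was 0.214 to 0.429 for control, 0.973 to 2.24 for LPS, and 503 to 614 for LPS-MIC-1. The 6 libraries labelled control and LPS thus had the markers of a myoblast at or near 0, and only the LPS-MIC-1 libraries carried them. In every comparison of LPS-MIC-1 with the other C2C12 libraries, the treatment and this difference in markers cannot be told apart. Comparisons of LPS with control are between libraries that both carried macrophage markers, and are not read as a response of myoblasts. C2C12 is used below as the name of the label.

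**Figure D1:**
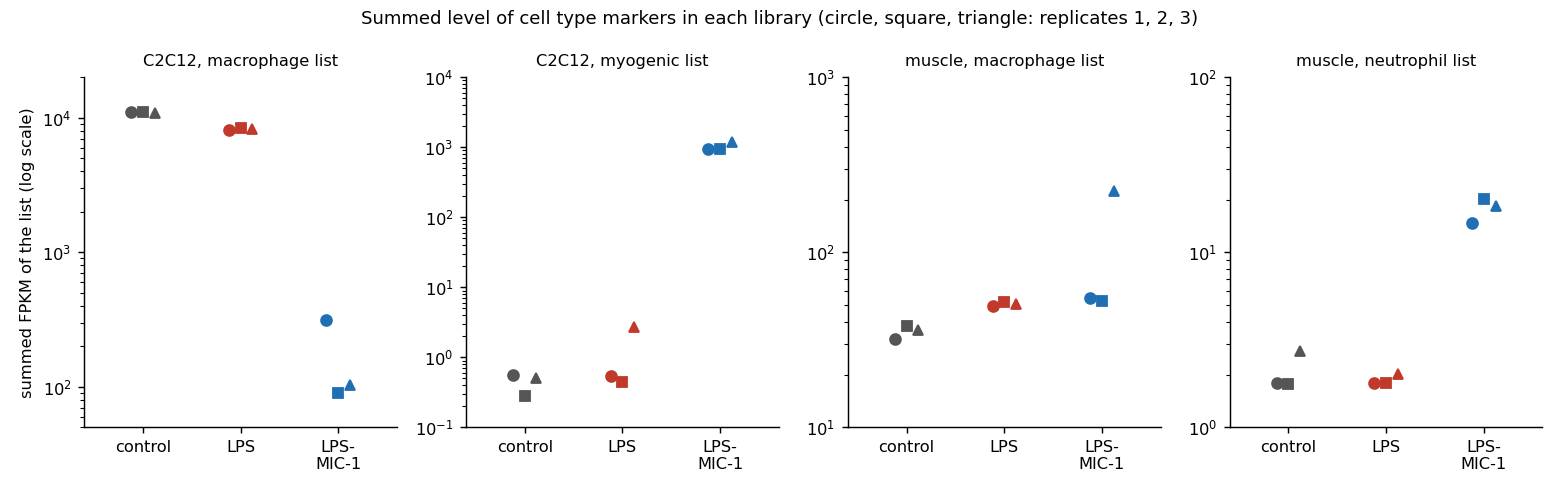
Summed FPKM of 4 cell type marker lists on logarithmic axes, 1 point per library, by group (control grey, LPS red, LPS-MIC-1 blue; circle, square and triangle are replicates 1, 2 and 3). The C2C12 macrophage sum is at least 8123 in the 6 control and LPS libraries and at most 312 in LPS-MIC-1, the myogenic sum does the reverse, and in muscle the LPS-MIC-1 replicate 3 has the highest macrophage sum, 222.

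In the muscle libraries the sum of 15 muscle fibre genes was 310446 to 318676 FPKM for control, 290434 to 297190 for LPS, and 227003 to 243317 for LPS-MIC-1. The myogenic sum was 4444 to 4508, 5662 to 5757 and 2830 to 3076 in the same order, and the mesenchymal sum 147 to 149, 148 to 151 and 148 to 168. The macrophage sum was 31.8 to 37.8 for control, 49.3 to 51.9 for LPS, and 54.5, 52.6 and 222 for LPS-MIC-1 replicates 1, 2 and 3. Lyz2 alone had 78.3 FPKM in replicate 3 against 5.27 and 3.93 in replicates 1 and 2. The neutrophil sum, over the 10 of 11 genes found, was 1.76 to 2.74 for control, 1.80 to 2.02 for LPS, and 14.7 to 20.0 for LPS-MIC-1. Its leading gene S100a8 had a mean of 0.119, 0.491 and 7.38 FPKM, Cxcr2 had 1.58, 1.17 and 1.44, S100a9 had 0.143, 0.0734 and 3.81, and Elane was listed at 0 in all 9 libraries. Sums for endothelial genes were 109 to 113, 70.1 to 73.6 and 111 to 127, and those for lymphocyte genes were 1.05 to 1.67, 1.44 to 1.49 and 1.43 to 1.56. Sums for adipocyte genes were 288 to 294, 220 to 244 and 324 to 352, for liver genes 0.828 to 1.03, 0.508 to 1.31 and 5.73 to 6.43, and for intestinal genes 5.71 to 7.82, 8.07 to 8.43 and 18.5 to 21.3. In such bulk samples, fewer cells of a type and less RNA per cell cannot be told apart.

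Each experiment was fitted apart with limma on log2(FPKM + 0.1), over genes with a mean FPKM over 1, with Benjamini-Hochberg adjustment across the whole table. Calls needed an absolute log2 fold change over 1 together with an adjusted p under 0.001 in C2C12 or under 0.05 in muscle. These fold changes understate the change of genes near 0. For a single gene, the exact permutation test of 3 against 3 libraries (2-sided) cannot go below p = 0.1, which is its value wherever 2 groups did not overlap.

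In C2C12, 8 of the 10 genes passed the filter, and Nlrp3 and Pycard did not. Between LPS and control, both groups with macrophage and without myoblast markers, Casp4 and Mlkl rose about 5-fold. The other 6 genes stayed under the fold limit. With LPS-MIC-1, the sensors Aim2 and Naip5, Casp1, Gsdmd and Ripk3 were lower than in both other groups, while Casp4 was higher than in both and Mlkl higher than in control. Of the 8 genes tested, 2 were called higher, beside 10.9% of all 10877 genes tested, and 0 were called lower, beside 10.0%, whereas 7198 of all genes reached an unadjusted p under 0.05. Their median log2 fold change was 0.62, against 0.00 over all genes. Between LPS-MIC-1 and LPS, 1 gene was called higher, beside 24.3% of all genes, and 5 lower, beside 25.6%, with a median of -1.45 against -0.05. Between LPS-MIC-1 and control, 2 were called higher, beside 21.1%, and 5 lower, beside 22.1%, with a median of -1.31 against -0.06. The 3 comparisons share libraries, and so are not independent of each other. Naip5, counted among the genes lower in LPS-MIC-1, passed the filter through control and LPS, so nothing was read from those counts.

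**Figure D2:**
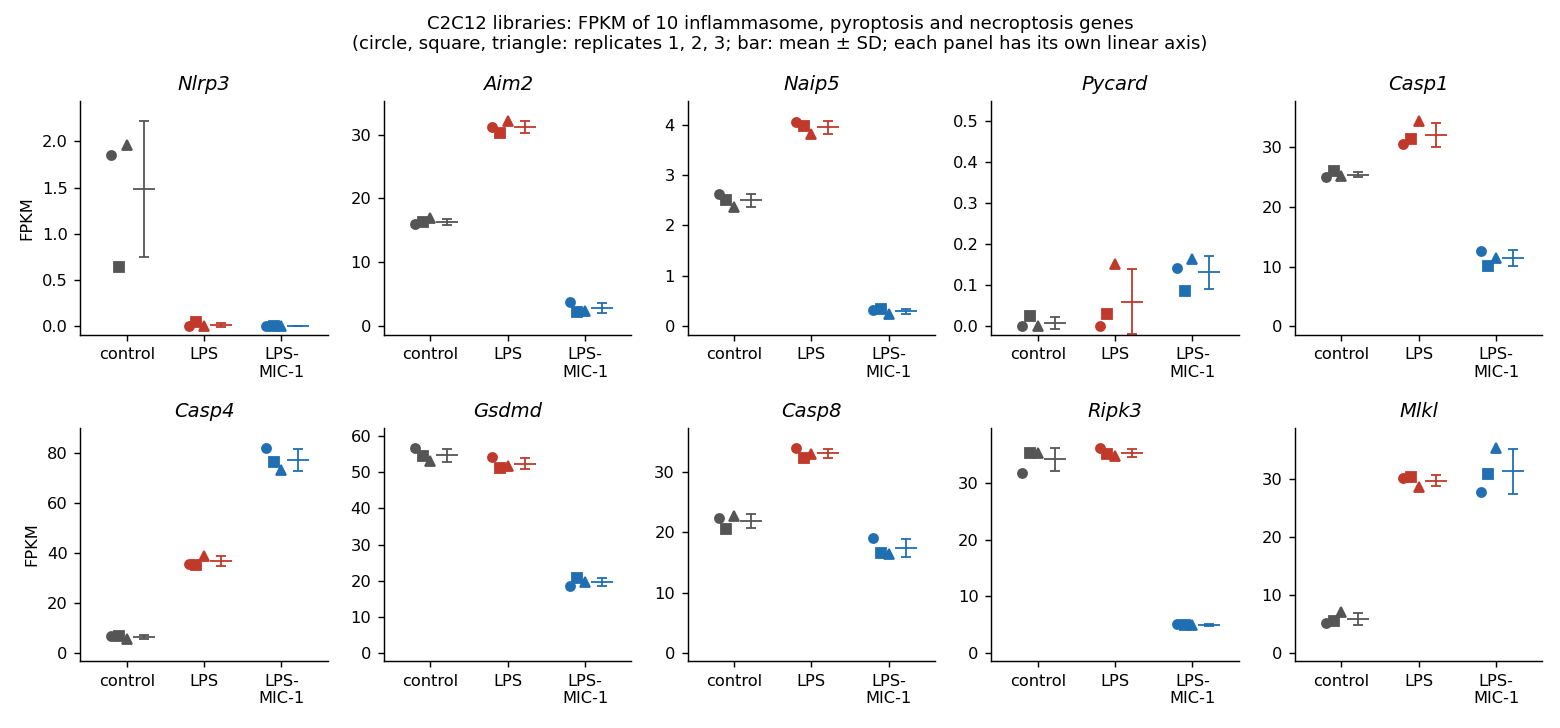
FPKM of the 10 genes in the 9 C2C12 libraries, each gene on its own linear axis (circle, square and triangle are replicates 1, 2 and 3, and the bar is the mean ± SD of 3 libraries). Casp4 and Mlkl are low in control only, Aim2, Naip5, Casp1, Gsdmd and Ripk3 are lowest in LPS-MIC-1, and Nlrp3 lies above 0.05 FPKM in control only.

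Among the sensors, Nlrp3, which responds to membrane damage and potassium efflux, had 1.85, 0.640 and 1.96 FPKM in C2C12 control replicates 1, 2 and 3. It was listed at 0 in LPS replicates 1 and 3, with 0.0461 in replicate 2, and at 0 in all 3 LPS-MIC-1 libraries. The control group lay above the other two without overlap, although its replicates spread about 3-fold. With a mean of 0.500 FPKM over 9 libraries, Nlrp3 missed the filter and was not tested in the main fit. A fit of every gene above 0 in at least 3 libraries gave log2 fold changes of -3.66 for LPS and -3.85 for LPS-MIC-1, each against control. Both passed the limits of a call. Nlrp3 entered that fit through its control libraries, where it was highest, so the calls are not used as support. The authors' mean normalized counts were 53.5 over control and LPS libraries and 0.456 over LPS and LPS-MIC-1 libraries.

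Aim2, the sensor of cytosolic DNA, had 15.9, 16.3 and 16.9 FPKM in control. LPS libraries had 31.2, 30.2 and 32.0, and LPS-MIC-1 libraries had 3.81, 2.33 and 2.42. The 3 groups did not overlap, with LPS highest and LPS-MIC-1 lowest. The log2 fold change of LPS against control was 0.92 (SE 0.167, adjusted p = 0.00151), past neither limit. Aim2 fell by 3.44 on the log2 scale between LPS and LPS-MIC-1 (SE 0.167, adjusted p = 2.59e-07) and was lower by 2.52 than control (log2 fold change -2.52, adjusted p = 1.96e-06). Replicate 1 of LPS-MIC-1, the library with the largest macrophage sum of its group, also had the most Aim2, and without it the change against LPS was -3.66.

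Naip5, which binds bacterial flagellin, had 2.63, 2.50 and 2.36 FPKM in control. With LPS it had 4.05, 3.97 and 3.81, and with LPS-MIC-1 0.322, 0.338 and 0.248. Again the groups did not overlap and stood in the order LPS, control, LPS-MIC-1. The change of LPS against control, a log2 fold change of 0.64 (SE 0.127, adjusted p = 0.00242), was not called. LPS-MIC-1 was lower than LPS (-3.33, SE 0.127, adjusted p = 6.79e-08) and lower than control (-2.69, adjusted p = 2.40e-07). Naip5 averaged 0.303 FPKM in LPS-MIC-1 and passed the filter through control and LPS, so these p-values are not used as support. Naip5 lies between the near-identical genes Naip2 and Naip6, so reads can be split among them and its level is uncertain. In the order control, LPS, LPS-MIC-1, Naip2 had 8.95 ± 0.0995, 14.4 ± 0.327 and 0.793 ± 0.544 FPKM (mean ± SD, n = 3), and Naip6 had 2.10 ± 0.252, 1.75 ± 0.187 and 0.247 ± 0.0593.

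Pycard, the adaptor that joins sensors to Casp1, was close to the limit of detection. It was listed at 0 in C2C12 control replicates 1 and 3 and had 0.0253 FPKM in replicate 2. LPS libraries had 0, 0.0305 and 0.151, and LPS-MIC-1 libraries had 0.143, 0.0869 and 0.165. LPS overlapped both other groups. The authors' mean normalized counts for Pycard, between 1.24 and 2.79 in the C2C12 comparisons, correspond to a few reads per library. LPS-MIC-1 lay above control without overlap, but at this depth Pycard was not tested.

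Of the inflammatory caspases, Casp1 had 25.1, 26.0 and 25.2 FPKM in control. Libraries labelled LPS had 30.5, 31.5 and 34.4, and LPS-MIC-1 libraries had 12.7, 10.0 and 11.5. LPS was the highest group and LPS-MIC-1 the lowest, without overlap. The difference between LPS and control was small, at 0.33 (SE 0.0878, adjusted p = 0.0102), and was not called. In LPS-MIC-1, Casp1 was lower than with LPS alone (log2 fold change -1.49, SE 0.0878, adjusted p = 7.97e-07) and than in control (-1.16, adjusted p = 4.52e-06).

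Casp4, the intracellular LPS sensor of the noncanonical inflammasome, took a different course from Casp1, its neighbour in the genome. Control libraries had 6.85, 6.97 and 5.68 FPKM, LPS libraries 35.7, 35.4 and 38.9, and LPS-MIC-1 libraries 81.9, 76.2 and 73.3. Levels rose from control to LPS to LPS-MIC-1 with wide gaps between the groups. LPS exceeded control by 2.48 (SE 0.0879, adjusted p = 2.08e-07), a 5.64-fold ratio of means. LPS-MIC-1 exceeded LPS by 1.07 (SE 0.0879, adjusted p = 6.53e-06) and control by 3.55 (adjusted p = 8.12e-09). The change between LPS-MIC-1 and LPS stood close to the fold limit and went under it, to 0.91, after quantile normalization. Casp12, a neighbouring paralog, was listed at 0 in control and LPS and had 12.4 ± 2.47 FPKM in LPS-MIC-1. Reads of Casp1, Casp4 and Casp12 could be shared in part, and the part of this in the Casp4 change was not tested.

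Gsdmd, which forms the pyroptotic pore, had 56.6, 54.4 and 53.1 FPKM in control. The LPS libraries had 54.1, 51.1 and 51.8, and the LPS-MIC-1 libraries 18.7, 20.8 and 19.6. Control and LPS overlapped, with a log2 fold change of -0.06 (SE 0.0523, adjusted p = 0.329), and LPS-MIC-1 lay far below both. The change was -1.41 against LPS (SE 0.0523, adjusted p = 6.03e-08) and -1.47 against control (adjusted p = 4.77e-08).

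Casp8, the protease that restrains necroptosis and can start apoptosis, had 22.4, 20.5 and 22.7 FPKM in control. The LPS libraries followed with 34.0, 32.4 and 32.9, and the LPS-MIC-1 libraries with 19.1, 16.7 and 16.5. The groups did not overlap, yet no comparison passed the fold limit. The log2 fold changes were 0.60 for LPS against control (SE 0.0709, adjusted p = 0.000136), -0.92 for LPS-MIC-1 against LPS (SE 0.0709, adjusted p = 4.18e-06) and -0.33 for LPS-MIC-1 against control (adjusted p = 0.00272).

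Ripk3, the kinase of the necrosome, had 31.8, 35.3 and 35.3 FPKM in control and 36.1, 35.2 and 34.7 in LPS. In LPS-MIC-1 it had 5.18, 4.89 and 5.01. Control and LPS overlapped, at a log2 fold change of 0.05 (SE 0.0571, adjusted p = 0.482). LPS-MIC-1 libraries lay far below both, with a change of -2.79 against LPS (SE 0.0571, adjusted p = 4.80e-09) and -2.74 against control (adjusted p = 4.17e-09).

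Mlkl, the substrate of Ripk3 and executioner of necroptosis, moved otherwise. Control libraries had 5.21, 5.48 and 7.08 FPKM, LPS libraries 30.2, 30.3 and 28.6, and LPS-MIC-1 libraries 27.7, 30.9 and 35.3. LPS and LPS-MIC-1 overlapped, and both lay above control. Mlkl rose by 2.32 from control to LPS (SE 0.128, adjusted p = 1.91e-06) and was 2.39 higher in LPS-MIC-1 than in control (adjusted p = 5.35e-07). The change between LPS-MIC-1 and LPS was 0.07 (SE 0.128, adjusted p = 0.631).

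The order of the genes by level, per transcript length, differed between the C2C12 groups. In control, Gsdmd was highest at 54.7 ± 1.80 FPKM, before Ripk3 at 34.1 ± 2.00, Casp1 at 25.4 ± 0.475, Casp8 at 21.9 ± 1.18 and Aim2 at 16.4 ± 0.469 (each SD, n = 3). Casp4 at 6.50 ± 0.713 and Mlkl at 5.92 ± 1.01 followed and overlapped each other. In LPS-MIC-1, Casp4 was highest at 77.1 ± 4.37, before Mlkl at 31.3 ± 3.82, Gsdmd at 19.7 ± 1.06, Casp8 at 17.4 ± 1.48, Casp1 at 11.4 ± 1.33 and Ripk3 at 5.03 ± 0.147. There Gsdmd and Casp8 overlapped. The sum of the macrophage list moved with the groups, at 10895 to 10941 FPKM for control, 8123 to 8326 for LPS, and 89.9 to 312 for LPS-MIC-1, and its part in the differences of the 10 genes was not tested. Leaving out LPS-MIC-1 replicate 1, the library with the most macrophage signal of its group, kept 6 called genes against LPS and 7 against control.

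In muscle, Casp4 and Casp8 were higher in LPS-MIC-1 than in either other group, and no gene was called between LPS and control. Ripk3 and Mlkl, under the filter, also had their highest values in all 3 LPS-MIC-1 libraries. The values of the 2 experiments were normalized separately and are not compared with each other. Nlrp3 was listed at 0 in all 9 libraries, and the highest value of any of the 10 genes was 5.16 FPKM, for Casp4. The filter was passed by 3 genes, Gsdmd with a mean of 2.25 FPKM over 9 libraries, Casp4 with 2.11 and Casp8 with 2.07. Just outside it lay Mlkl with 0.990 and Ripk3 with 0.873. Casp4 passed through its LPS-MIC-1 libraries only, the other group means being below 1. Depth was low, with mean normalized counts given by the authors of 0 for Nlrp3 and, for the other 9 genes, between 5.78 for Pycard and 85.3 for Casp8 in the comparisons with LPS-MIC-1.

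**Figure D3:**
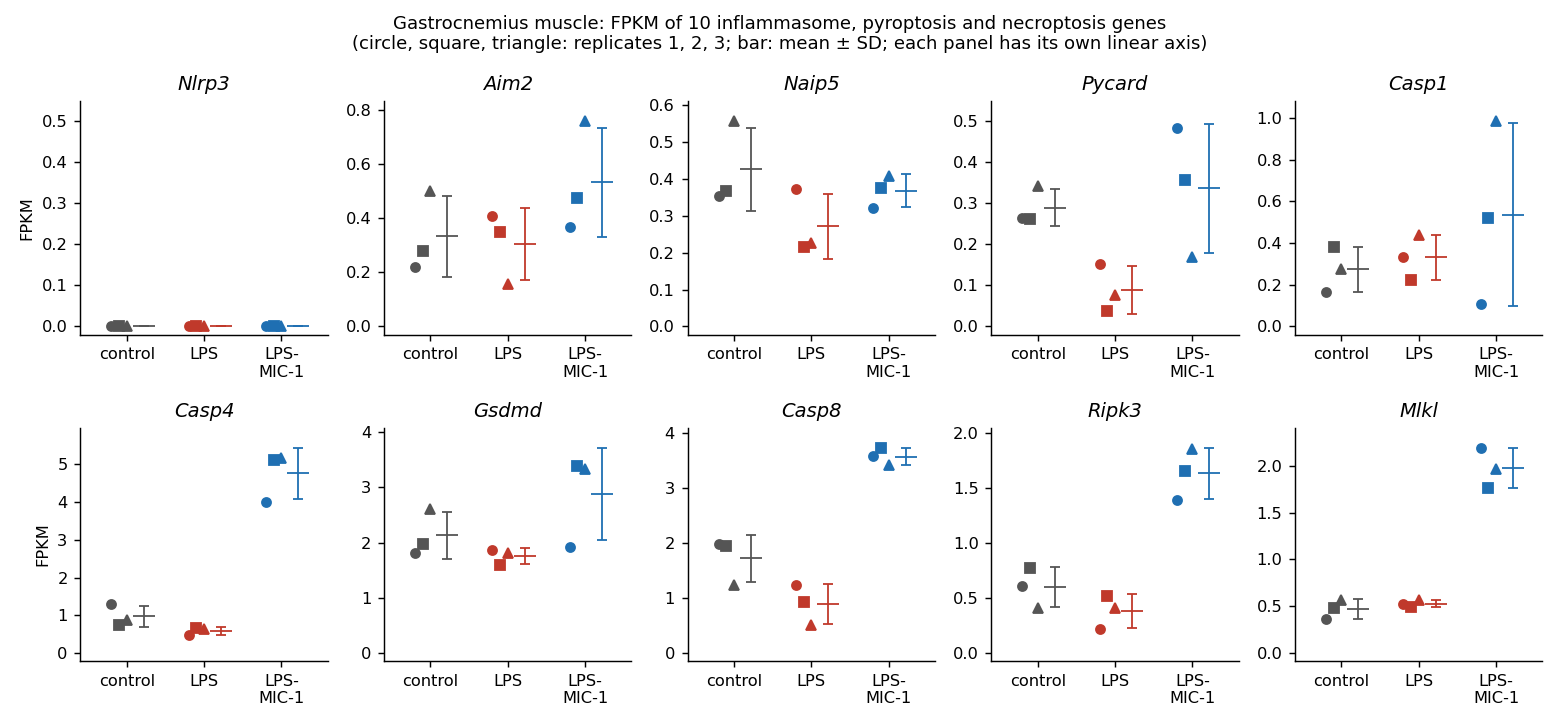
FPKM of the 10 genes in the 9 gastrocnemius libraries, each gene on its own linear axis (circle, square and triangle are replicates 1, 2 and 3, and the bar is the mean ± SD of 3 libraries). Casp4, Casp8, Ripk3 and Mlkl are highest in all 3 LPS-MIC-1 libraries, and Nlrp3 is at 0 throughout.

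Between LPS and control muscle, 0 of the 3 genes tested were called higher, beside 0.654% of all 9475 genes, and 0 were called lower, beside 0.591%. At an unadjusted p under 0.05, 2809 genes of all passed. The median log2 fold change of the 3 genes was -0.62, against 0.01 over all genes. Between LPS-MIC-1 and LPS, 2 were called higher, beside 9.67%, and 0 lower, beside 5.44%, with a median of 1.95 against -0.01. Between LPS-MIC-1 and control, 2 were called higher, beside 9.33%, and 0 lower, beside 6.12%, with a median of 1.04 against 0.01. Because the filter favoured genes high in LPS-MIC-1, nothing was read from these counts. Over all genes, LPS-MIC-1 against LPS gave 916 higher and 515 lower, which became 768 and 680 after quantile normalization, and LPS-MIC-1 against control gave 884 and 580, which became 773 and 733. Quantile normalization shifted the median over all genes by -0.114 in the former comparison and -0.116 in the latter.

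The muscle sensors stayed low in every group. Aim2 had 0.219, 0.279 and 0.502 FPKM in control, 0.409, 0.348 and 0.156 with LPS, and 0.368, 0.474 and 0.758 with LPS-MIC-1. Naip5 had 0.354, 0.366 and 0.556 in control, 0.371, 0.215 and 0.227 with LPS, and 0.320, 0.377 and 0.408 with LPS-MIC-1. For both genes the 3 groups overlapped, and neither was tested. The highest Aim2 value was that of LPS-MIC-1 replicate 3, the library with the macrophage sum of 222 FPKM.

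Pycard in muscle had 0.264, 0.263 and 0.341 FPKM in control. LPS libraries had 0.152, 0.0382 and 0.0756, and LPS-MIC-1 libraries 0.483, 0.358 and 0.170. The LPS libraries lay below both other groups without overlap, at an exact permutation p = 0.1 in each case. Casp1 had 0.164, 0.380 and 0.275 in control, 0.331, 0.222 and 0.438 with LPS, and 0.108, 0.518 and 0.983 with LPS-MIC-1, and all groups overlapped. Its LPS-MIC-1 libraries spread 9-fold, with replicate 3 again the highest.

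Casp4 had 1.29, 0.757 and 0.883 FPKM in control muscle, 0.473, 0.654 and 0.646 with LPS, and 3.98, 5.11 and 5.16 with LPS-MIC-1. The 3 groups did not overlap, with LPS lowest and LPS-MIC-1 highest. The change of LPS against control, -0.62 (SE 0.224, adjusted p = 0.104), was not called. Casp4 was higher in LPS-MIC-1 than in LPS by 2.81 on the log2 scale (SE 0.224), an 8.04-fold ratio of means, and than in control by 2.19. Without LPS-MIC-1 replicate 3, the change against LPS was 2.75. Casp4 entered the test through its LPS-MIC-1 libraries only, so no p-value is given for these changes. The reads of Casp1, Casp4 and Casp12, which are neighbouring paralogs, could be shared in part.

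Gsdmd had 1.81, 1.98 and 2.60 FPKM in control, 1.87, 1.60 and 1.81 with LPS, and 1.91, 3.38 and 3.33 with LPS-MIC-1. Only the LPS and LPS-MIC-1 groups did not overlap, by a narrow gap at LPS-MIC-1 replicate 1. The log2 fold changes were -0.25 for LPS against control (SE 0.231, adjusted p = 0.522), 0.64 for LPS-MIC-1 against LPS (SE 0.231, adjusted p = 0.0437) and 0.39 for LPS-MIC-1 against control (adjusted p = 0.183). None passed the fold limit.

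Casp8 had 1.98, 1.95 and 1.23 FPKM in control, 1.24, 0.936 and 0.522 with LPS, and 3.58, 3.73 and 3.42 with LPS-MIC-1. Control and LPS overlapped narrowly, at -0.91 (SE 0.291, adjusted p = 0.0734), and LPS-MIC-1 lay above both. Casp8 was higher in LPS-MIC-1 than in LPS by 1.95 (SE 0.291, adjusted p = 0.000566) and than in control by 1.04 (adjusted p = 0.0146). The latter sat at the fold limit and lost its call with a pseudocount of 1 (0.76), after quantile normalization (0.93) and without control replicate 3 (0.83). Without LPS replicate 1, the change between LPS and control was called, at -1.15 (adjusted p = 0.0420).

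Ripk3 had 0.615, 0.775 and 0.412 FPKM in control muscle, 0.219, 0.522 and 0.411 with LPS, and 1.40, 1.65 and 1.85 with LPS-MIC-1. Mlkl had 0.364, 0.482 and 0.568 in control, 0.530, 0.491 and 0.567 with LPS, and 2.19, 1.76 and 1.96 with LPS-MIC-1. For both genes control and LPS overlapped, and all 3 LPS-MIC-1 libraries lay above them. The ratio of means to LPS was 4.26 for Ripk3 and 3.72 for Mlkl.

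When every gene above 0 in at least 3 libraries was tested, 9 of the 10 genes entered the muscle fit. Against LPS, 5 of them were called higher in LPS-MIC-1, beside 8.81% of 15434 genes, and against control 4 were, beside 8.58%. Those added were Ripk3 with log2 fold changes of 1.89 against LPS (adjusted p = 0.00141) and 1.33 against control (adjusted p = 0.00819), Mlkl with 1.72 (adjusted p = 0.000174) and 1.87 (adjusted p = 9.97e-05), and Pycard with 1.19 against LPS (adjusted p = 0.0226).

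The neutrophil sum, 14.7 to 20.0 FPKM in LPS-MIC-1 muscle against 1.76 to 2.74 in control and 1.80 to 2.02 in LPS, moved with Casp4, Casp8, Ripk3 and Mlkl, as did the lower muscle fibre sum of 227003 to 243317. This was not particular to these lists. The macrophage, liver, intestinal and adipocyte sums were also highest in LPS-MIC-1, and the myogenic sum lowest, without overlap. The endothelial, lymphocyte and mesenchymal sums overlapped another group. Within the neutrophil list, Cxcr2 and Elane did not rise. The part of any of these sums in the results was not tested.

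**Figure D4:**
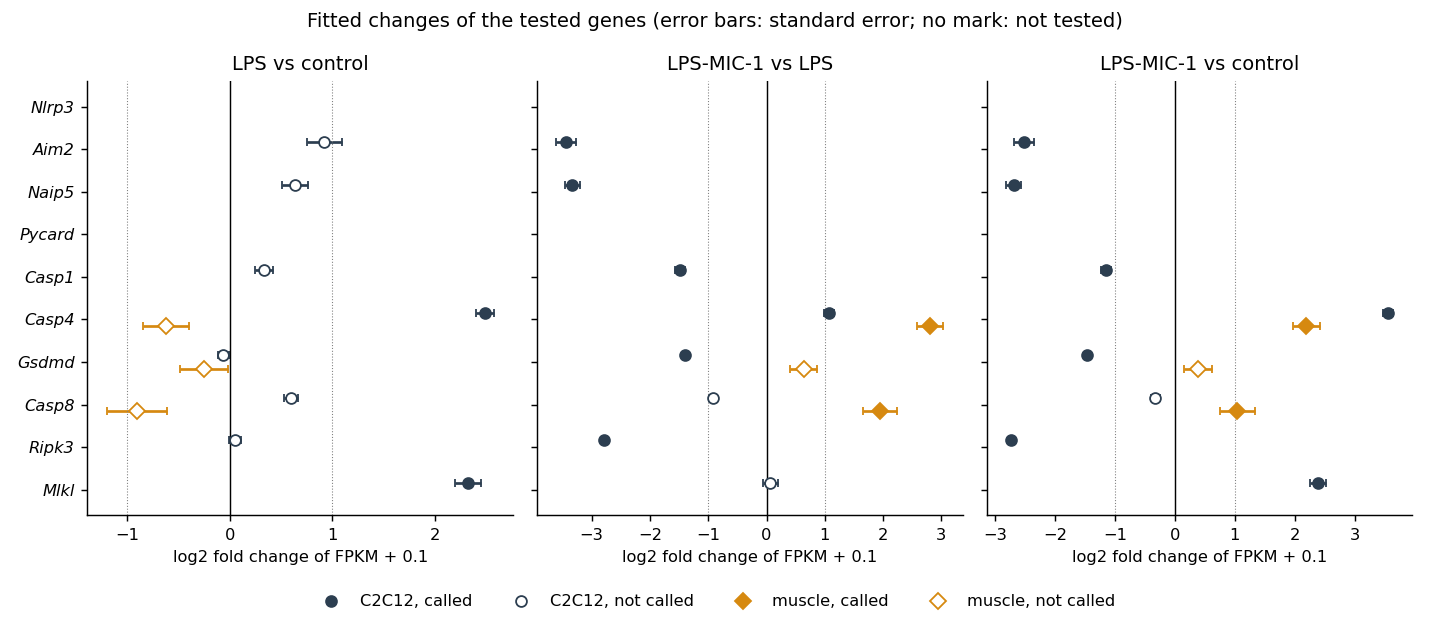
Log2 fold changes of FPKM + 0.1 with standard errors for the tested genes in 3 comparisons (dark circles C2C12, orange diamonds muscle, filled where called, open where not, dotted lines at the fold limit of 1). Casp4 has filled marks on the right in both experiments for LPS-MIC-1 against LPS, whereas Gsdmd and Casp8 lie left of 0 in C2C12 and right of it in muscle.

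Further genes of these pathways were taken from a list of 59, of which 58 were found. In C2C12, 49 were tested. Against control, LPS gave 9 higher and 2 lower, beside the 10.9% and 10.0% of all genes, and the median change was 0.18 against 0.00 over all genes. Il1a, the cytokine released by dying cells, went from 0.267 ± 0.0291 to 136 ± 3.72 FPKM (log2 fold change 8.54). Outside LPS, only LPS-MIC-1 replicate 1 had Il1a above 1 FPKM, at 4.90. Il1a thus entered the test mainly through LPS, so no p-value is given, and nothing was read from the count of genes higher, which includes it. Il1rn, the antagonist of its receptor, went from 14.4 ± 0.841 to 1394 ± 18.1 (6.59, adjusted p = 0.000101). Zbp1, a nucleic acid sensor that engages Ripk3, went from 3.66 ± 0.389 to 65.4 ± 2.02 (4.13, adjusted p = 3.30e-06). Il1b and Tnf passed the fold limit without overlap but missed the adjusted p limit, and so were not called. Il1b went from 2.19 ± 0.233 to 166.5 ± 4.86 FPKM (6.19, adjusted p = 0.00117). Tnf went from 57.6 ± 1.97 to 397 ± 13.7 (2.78, adjusted p = 0.0154). The spread used for both genes includes LPS-MIC-1 replicate 1, which is outside this comparison and stood apart from its group. By role, 3 of 11 death receptors, adaptors and kinases were higher and 0 lower, 2 of 12 sensors and partners were higher and 1 lower, and 0 of 5 further caspases were called. Nothing was read from these small groups.

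Between LPS-MIC-1 and LPS, 7 of the 49 were higher and 24 lower, beside 24.3% and 25.6% of all genes, with a median of -1.04 against -0.05. The sensors and their partners made up 10 of those lower, out of 12 tested, with 1 higher, and nothing was read from this small group. Il1b, the main cytokine substrate of Casp1, went from 167 ± 4.86 FPKM to 1.79 ± 2.86 (-7.97, adjusted p = 0.000147), and Tnf, which can start necroptosis, from 397 ± 13.7 to 5.22 ± 6.94 (-7.12, adjusted p = 4.63e-05). Serpinb1a, a serpin that limits inflammatory proteases, went the other way, from 0.0565 ± 0.0391 to 27.5 ± 4.17, a log2 fold change of 7.48. Serpinb1a, Casp12 and Ripk1 averaged under 1 FPKM in control and in LPS, and passed the filter through LPS-MIC-1 only. No p-value is therefore given for Serpinb1a, and nothing was read from the count of genes higher, which includes all of them. Among the genes lower, Nlrp1b, Xiap and Irf8 averaged under 1 FPKM in LPS-MIC-1 and passed the filter through control and LPS. Nothing was read from the count of genes lower either. Of the LPS-MIC-1 libraries, replicate 1 carried most of the remaining Il1b and Tnf, with 5.09 FPKM of Il1b against 0.0970 and 0.185, and 13.2 of Tnf against 1.19 and 1.24. Without it, the LPS-MIC-1 mean was 0.141 for Il1b and 1.22 for Tnf, and their changes were -9.46 (adjusted p = 8.23e-09) and -8.24 (adjusted p = 1.33e-10).

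Between LPS-MIC-1 and control, 9 were higher and 17 lower, beside 21.1% and 22.1% of all genes, with a median of -0.32 against -0.06. Serpinb1a was higher by 7.33. It, Casp12 and Ripk1 count among the genes higher here too, and nothing was read from that count. Nlrp1b, Xiap and Irf8, which passed the filter through control and LPS, count among the genes lower. Nothing was read from the count of genes lower either, and the p-values of Irf8 below are not used as support. Casp12, a paralog of Casp4, was listed at 0 in the control and LPS libraries and had 12.4 ± 2.47 FPKM in LPS-MIC-1. Irf8, a transcription factor of the myeloid lineage, had 57.9 ± 1.04 in control and 0.660 ± 0.895 in LPS-MIC-1 (-6.94, adjusted p = 2.48e-05). Its LPS-MIC-1 replicates had 1.69, 0.127 and 0.161, and without replicate 1 the mean was 0.144 and the change -7.90 (adjusted p = 5.17e-10). The macrophage sum, at most 312 FPKM in LPS-MIC-1, differed between the same groups, and its part in these results was not tested.

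In muscle, 33 of the further genes were tested. Only Nek7, the kinase that licenses Nlrp3, was called between LPS and control, at 29.7 ± 1.06 against 13.8 ± 2.45 FPKM (1.12, adjusted p = 0.000447), beside 0.654% of all genes called higher and 0.591% lower, and the median was 0.00. Between LPS-MIC-1 and LPS, 10 were higher and 1 lower, beside 9.67% and 5.44%, with a median of 0.48 against -0.01. Zbp1 had 9.58 ± 1.40 FPKM in LPS-MIC-1 and 0.497 ± 0.259 in LPS, a log2 fold change of 4.11. Ifi204, a DNA sensor of the same gene family as Aim2, had 7.80 ± 0.496 and 0.654 ± 0.0543 (3.39), and Nlrc5 had 2.57 ± 0.0374 and 0.466 ± 0.0608 (2.24). Against control, 12 were higher and 0 lower, beside 9.33% and 6.12%, with a median of 0.62 against 0.01, and the same 3 genes led with 5.19, 3.32 and 2.34. These 3 genes averaged under 1 FPKM in control and in LPS, and passed the filter through LPS-MIC-1 only. Their p-values are therefore not given, and nothing was read from the counts of genes higher, which include them. The transcriptional regulators Irf1, Irf2 and Irf8, named after their values were seen, were all higher in LPS-MIC-1 than in LPS, with 16.0 against 4.15, 20.0 against 8.88 and 5.26 against 2.03 FPKM.

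Across the 9 muscle libraries, the tested genes whose log2 values followed those of Mlkl most closely were Spag9 (Pearson r = 0.995), Anxa7 (r = 0.995) and Zfp259 (r = 0.994). For Gsdmd they were Nucb2 (r = 0.924), Pi4ka (r = 0.924) and Mir3061 (r = 0.910). These are descriptions over libraries that fall into 3 groups, and Nlrp3, at 0 throughout, has no such genes.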

How the data were processed

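RNA of 9 C2C12 and 9 gastrocnemius libraries was sequenced by the authors, who used kallisto pseudoalignments and the tximport package and deposited a table of FPKM by gene for each experiment. Build mm9 is named in the submitters' processing notes. The authors also deposited DESeq2 tables whose mean normalized counts (a depth-scaled signal averaged over the libraries compared) served here only to judge depth. Those of muscle control against LPS were out of proportion to the others and were not used, nor were the fold changes and p-values in these tables. The muscle values came with 9 columns of values without a sample name, which were not used. Reads per library are unknown.

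FPKM are not counts, so groups were compared with limma 3.58.1 in R 4.3.3 on log2(FPKM + 0.1), with group means, eBayes with a trend and 1 spread per gene over the 9 libraries of an experiment, instead of the DESeq2 model of the study. The test covered the 10877 C2C12 and 9475 muscle genes whose FPKM averaged over 1. Calls required an absolute log2 fold change over 1 and a Benjamini-Hochberg adjusted p under 0.001 (C2C12) or under 0.05 (muscle). The C2C12 limits are those of the study. In muscle, the study states a P under 0.05 for its counts of changed genes, and an adjusted P under 0.05 for the genes it clustered. The fit was tested on simulated data. Replicates correlated with r from 0.936 to 0.989, and no 2 libraries of the same group were identical. Libraries of different groups were not checked for identity. Deviations from the group means of the 18 pairs of same-numbered libraries correlated between -0.0757 and 0.0823. No pairing by number was seen in these values, but whether the libraries were paired by design is not known.

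Named are all 10 genes, the 3 called genes of the further pathway list with the largest change per comparison, the 3 most abundant genes of each marker list set beside a result, and in muscle the 3 genes most like Nlrp3, Gsdmd and Mlkl. Naip2, Naip6, Nlrp1b, Xiap, Irf1, Irf2, Irf8 in muscle, single defining markers and the genes of the closing section were named after their values were seen. So were Il1b and Tnf between C2C12 LPS and control. The genes, lists and tests were chosen with earlier results of these data known. Gene names and neighbours were taken from RefSeq (GRCm38.p6), in which all 10 genes were found. Promoter motifs were not searched, and coordinates are not given, since no sequence of the build was used here. The alternatives changed the pseudocount to 0.01 or 1, the FPKM filter to none or to a mean over 5, the scaling to quantiles or median ratios, and the limits of a call. Others dropped the eBayes trend, fitted the 6 libraries of a comparison alone, added a replicate block, or left out each library in turn. Plots were made in matplotlib 3.10.9 (Python 3.11.15).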

Additional observations from a re-analysis of the deposited data

Results flagged for a closer look

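For Casp4, Gsdmd, Casp8 and Ripk3, group means differed in opposite directions in the 2 experiments, with groups that did not overlap in either. The share of all genes that did so was not counted, so nothing was read from the number of these genes. In each pair, only 1 of the 2 experiments gave a call: in muscle Casp4 and Gsdmd missed the limits and Ripk3 was under the FPKM filter, and in C2C12 Casp8 missed them. The values are differences of mean log2(FPKM + 0.1). The difference between the experiments was not tested, since their values were normalized separately. Casp4 differed by 2.48 between LPS and control in C2C12 and by -0.62 in muscle. Between LPS-MIC-1 and LPS, Gsdmd differed by -1.41 in C2C12 and 0.64 in muscle, Casp8 by -0.92 and 1.95, and Ripk3 by -2.79 and 1.89. Between LPS-MIC-1 and control, Casp8 differed by -0.33 in C2C12 and 1.04 in muscle, and Ripk3 by -2.74 and 1.33. The C2C12 libraries compared with LPS-MIC-1 carried macrophage markers in place of myogenic ones, as given above, and the part of this in the opposite directions was not tested. With 3 libraries per group, no test for outlying libraries was made.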

How the results depend on the processing

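Of 582 recomputed changes of single genes that had been tested, 575 kept their direction and their side of the limits. Direction reversed for Mlkl between C2C12 LPS-MIC-1 and LPS without LPS-MIC-1 replicate 3 (leaving out 1 library gave -0.022 to 0.15) and for Ripk3 between C2C12 LPS and control after quantile normalization (-0.00039), both near 0 throughout. In muscle, the number of the 10 genes called between LPS-MIC-1 and LPS became 5 with no FPKM filter and 0 with a mean FPKM over 5, where none was tested. Between LPS-MIC-1 and control it became 4 with no filter, 0 with a mean over 5, and 1 with a pseudocount of 1, after quantile normalization or at an adjusted p under 0.001. Leaving out 1 library gave 0 to 1 between LPS and control and 1 to 2 between LPS-MIC-1 and control. Casp4 in C2C12 LPS-MIC-1 against LPS was 0.91 after quantile normalization (adjusted p = 3.36e-05). Of the 59 pathway genes, those called between C2C12 LPS and control numbered 11, or 20 at any fold change and 19 at an adjusted p under 0.05. In muscle, 1 between LPS and control became 7 at any fold change and 2 without LPS replicate 2. There, 11 between LPS-MIC-1 and LPS became 20 at any fold change and 4 with a mean over 5, and 12 between LPS-MIC-1 and control became 21 and 5. With the replicate block, 2, 6 and 7 of the 10 genes were called in C2C12 and 0, 2 and 2 in muscle, the same numbers as without it. Values near 0 FPKM, which include 7 of the 10 genes in muscle, rest on few reads, and no interval could be given without counts. Where leaving out a library left a group of 2, its spread was shared with the other groups.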

Other observations

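The cytokine substrates of the inflammasome were close to 0 in muscle. In the order control, LPS, LPS-MIC-1, Il1b had 0.0634 ± 0.000327, 0.0640 ± 0.000399 and 0.302 ± 0.114 FPKM (SD, n = 3). Il18 was listed at 0 in every muscle library but LPS-MIC-1 replicate 1, where it had 0.392. Il1rn was listed at 0 in control, with 0.0659 ± 0.000957 FPKM after LPS and 1.09 ± 0.0229 after MIC-1 and LPS. These 3 genes lay below the FPKM filter and were not tested, and all genes named here were chosen after their values were seen.

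Ripk1, the kinase upstream of Ripk3, had 0.269 ± 0.0864 FPKM in C2C12 control, was listed at 0 in all 3 LPS libraries and had 4.14, 5.87 and 1.51 in LPS-MIC-1. In muscle, Ripk1 was listed at 0 in 4 of 9 libraries and reached at most 1.03. Nek7 in muscle rose further in LPS-MIC-1, to 41.5 ± 1.02 FPKM, against 29.7 ± 1.06 in LPS (log2 fold change 0.48, adjusted p = 0.00628), under the fold limit. Casp12, neighbour of Casp4, had 6.83 ± 0.423, 6.03 ± 0.198 and 7.44 ± 0.457 in control, LPS and LPS-MIC-1 muscle, and passed the fold limit in no comparison.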
